A study of Mus musculus with 4 samples.

Results

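A set of 10 genes of iron handling and ferroptosis were followed in nuclei of the cerebral cortex of glutathione-deficient mice. The 10 genes, of 32285 in the deposited matrices, were chosen by symbol and not by a cut on their values. Earlier results of these data were known at that choice. Tfrc and Slc11a2 stand for iron uptake, Fth1, Ftl1 and Ncoa4 for storage and its release, and Slc40a1 for export. Acsl4 and Lpcat3 stand for the lipids that ferroptosis oxidises, and Slc3a2 and Aifm2 for defence. All 10 had UMIs (unique molecular identifiers, 1 per captured RNA molecule). Single-nucleus RNA-seq was available for 4 GCLC-KO libraries: 2 at 3 months of age, named 3M-1 and 3M-2, and 2 of 6-month-old mice, named 6M-1 and 6M-2. Their titles name a mouse in the singular and no treatment, so each library was taken as 1 untreated mouse. Batch 1 holds 3M-1 and 6M-1, and batch 2 the other pair. These numbers equal the replicate numbers in the titles, and what the libraries of a batch shared is not described. Every mouse carried the same genotype. Floxed Gclc, the catalytic subunit of the enzyme that starts glutathione synthesis, was deleted through a CaMKII-driven Cre. The paper describes this knockout as specific to neurons, so glia were not its target. Which classes of neurons lost the gene was not tested. No wild-type library was among these samples, so each comparison below is between ages or between cell types within GCLC-KO mice. Per the study's methods, the dissected cortex was rich in rod-shaped microglia. Nuclei, unlike whole cells, hold little of the cytoplasmic RNA.

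Iron enters most cells bound to transferrin through the transferrin receptor, and leaves endosomes through the divalent metal transporter. Inside the cell it is held in ferritin shells of heavy and light chains, which NCOA4 delivers to the lysosome for breakdown, and ferroportin is the exporter. When labile iron oxidises polyunsaturated phospholipids faster than glutathione-dependent and other defences repair them, the cell dies by ferroptosis. In the brain, oligodendrocytes are known as iron-rich cells and microglia as cells that take up and recycle iron.

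Several of the 10 genes are known targets of the iron regulatory proteins, which bind a short hairpin, the iron-responsive element. In a 5′ untranslated region the bound hairpin holds back translation, and in a 3′ untranslated region it protects the RNA from decay. The hairpins are shown because they tie the storage, export and uptake genes to the same regulator and because RNA levels, the only readout here, miss control at translation. They were read from the GENCODE M21 transcripts of GRCm38 (mm10), 5′ to 3′ on the gene's strand, and capitals mark the bulged C and the 6-base loop. The letters searched were CNNNNNCAGTGN, on the transcript strand only, with the 5 bases between C and loop required to pair with the 5 bases after it, G–T pairs allowed.

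Fth1, 5′ untranslated region: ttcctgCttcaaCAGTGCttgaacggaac
Ftl1, 5′ untranslated region: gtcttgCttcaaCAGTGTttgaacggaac
Slc40a1, 5′ untranslated region: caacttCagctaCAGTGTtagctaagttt
Tfrc, 3′ untranslated region: aattatCggaagCAGTGCcttccataatt
Tfrc, 3′ untranslated region: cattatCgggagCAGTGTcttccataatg
Tfrc, 3′ untranslated region: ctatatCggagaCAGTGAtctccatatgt
Tfrc, 3′ untranslated region: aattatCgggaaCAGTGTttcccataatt

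The bulged C lay at base 84 of the 253-base 5′ region of Ftl1 and at base 96 of the 319-base region of Slc40a1. In Fth1 the hairpin was present in 4 annotated transcripts. Those of Tfrc lay at bases 889, 1268, 1333 and 1380 of a 2458-base 3′ region. Over all protein-coding genes, the same search matched 0.148% of 20916 genes with a 5′ region and 0.613% of 21039 genes with a 3′ region. The other 6 genes had no match to these letters in their annotated untranslated regions. Hairpins with another loop or an interrupted stem were not searched for.

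In mm10 coordinates the genes lie on 9 chromosomes. Tfrc spans 16:32608920-32632794 (+), Slc11a2 15:100387898-100425072 (−), Fth1 19:9980598-9985098 (+), Ftl1 7:45457944-45459884 (−) and Ncoa4 14:32159865-32179855 (+). Slc40a1 spans 1:45908068-45926523 (−), Acsl4 X:142317993-142390535 (−), Lpcat3 6:124663027-124704418 (+), Slc3a2 19:8706882-8723369 (−) and Aifm2 10:61715263-61739260 (+). Lpcat3, Aifm2 and Slc11a2 overlap Emg1, H2afy2 and Gm5475 on the opposite strand. Ftl1 has a near-identical copy, Ftl1-ps1, at 13:74399694-74407346 (+), whose reads may be split from or shared with it, so Ftl1 values are uncertain to that extent.

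After removal of nuclei with more than 7000 genes or over 1% mitochondrial UMIs, 30515 of 30784 nuclei with 250925711 UMIs remained, between 6802 and 8750 per library, with a median of 5994 to 8140 UMIs per nucleus. Nuclei were assigned by marker genes, and 73.8% received a class: 11269 excitatory neuron-like, 3387 inhibitory neuron-like, 4498 oligodendrocyte-like, 611 oligodendrocyte precursor (OPC)-like, 225 astrocyte-like and 2145 microglia-like nuclei, besides smaller classes. In these 6 classes all of a class's own markers were detected in every library. The summed level of the excitatory markers in their own class was 1338 to 1438 CPM (UMIs per 1000000 UMIs of that class and library), and that of the other classes' own markers 6788 to 13904 CPM. OPC-like sums also held 4547 to 5615 CPM of the inhibitory list, part of whose genes precursors share. Oligodendrocyte-like sums held 1400 to 1604 CPM of that list. Astrocyte-like sums held 106 to 751 CPM of it and 226 to 395 CPM of the mural list. As a measure of free RNA, the neuronal RNAs Camk2a and Snap25 summed to 1731 to 2027 CPM in excitatory neuron-like nuclei and to 174 to 607 CPM in the 4 glial classes. Any pair of libraries shared 12 to 19 barcodes, with 0 nuclei of identical counts. The targeted gene Gclc averaged 28.2 CPM in astrocyte-like to 56.8 CPM in microglia-like nuclei and 36.5 CPM in excitatory neuron-like nuclei. Those reads come from the 3′ end and there is no wild-type, so they do not test the deletion. The library 3M-1 stood apart: ribosomal protein RNAs, which are mostly cytoplasmic, made up 1341 CPM there against 1875 to 2068 CPM in the other 3 libraries, and mitochondrial RNA 36.3 CPM against 42.4 to 46.4 CPM.

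The first question was in which cells each gene is expressed. Among the 6 classes tested, the transferrin receptor was higher in neurons and lower in microglia-like nuclei, ferritin heavy chain was highest in oligodendrocyte-like nuclei, ferritin light chain and ferroportin in microglia-like nuclei, and Lpcat3 was higher in astrocyte- and microglia-like nuclei. Every ranking below is among these 6 classes. The 19 endothelial-like nuclei, too few to test, held Tfrc, Ftl1, Slc40a1 and Slc3a2 at 633, 400, 299.95 and 267 CPM. Each lay above the highest mean of a tested class, and genes with 3 UMIs or fewer there were not considered. Each class was set against the mean of the other 5 in 1 fit with the mouse as a block (edgeR quasi-likelihood test, Benjamini-Hochberg adjusted over 14643 genes). Of the 60 differences of the 10 genes, 34 passed an adjusted p of 0.05, 18 higher and 16 lower. Cell classes differ in most genes, and this share must be read against that: 65.4% of all genes tested passed in excitatory neuron-like, 59.2% in inhibitory neuron-like, 57.3% in oligodendrocyte-like, 28.7% in OPC-like, 30.2% in astrocyte-like and 62.8% in microglia-like nuclei. The 10 genes passed in 7, 7, 7, 3, 3 and 7 cases in the same order, which is near the background in each class. Their median difference (log2) ran from −0.40 in excitatory neuron-like to 0.41 in microglia-like nuclei, where the medians of all genes were 0.00 and −0.04.

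**Figure D1:**
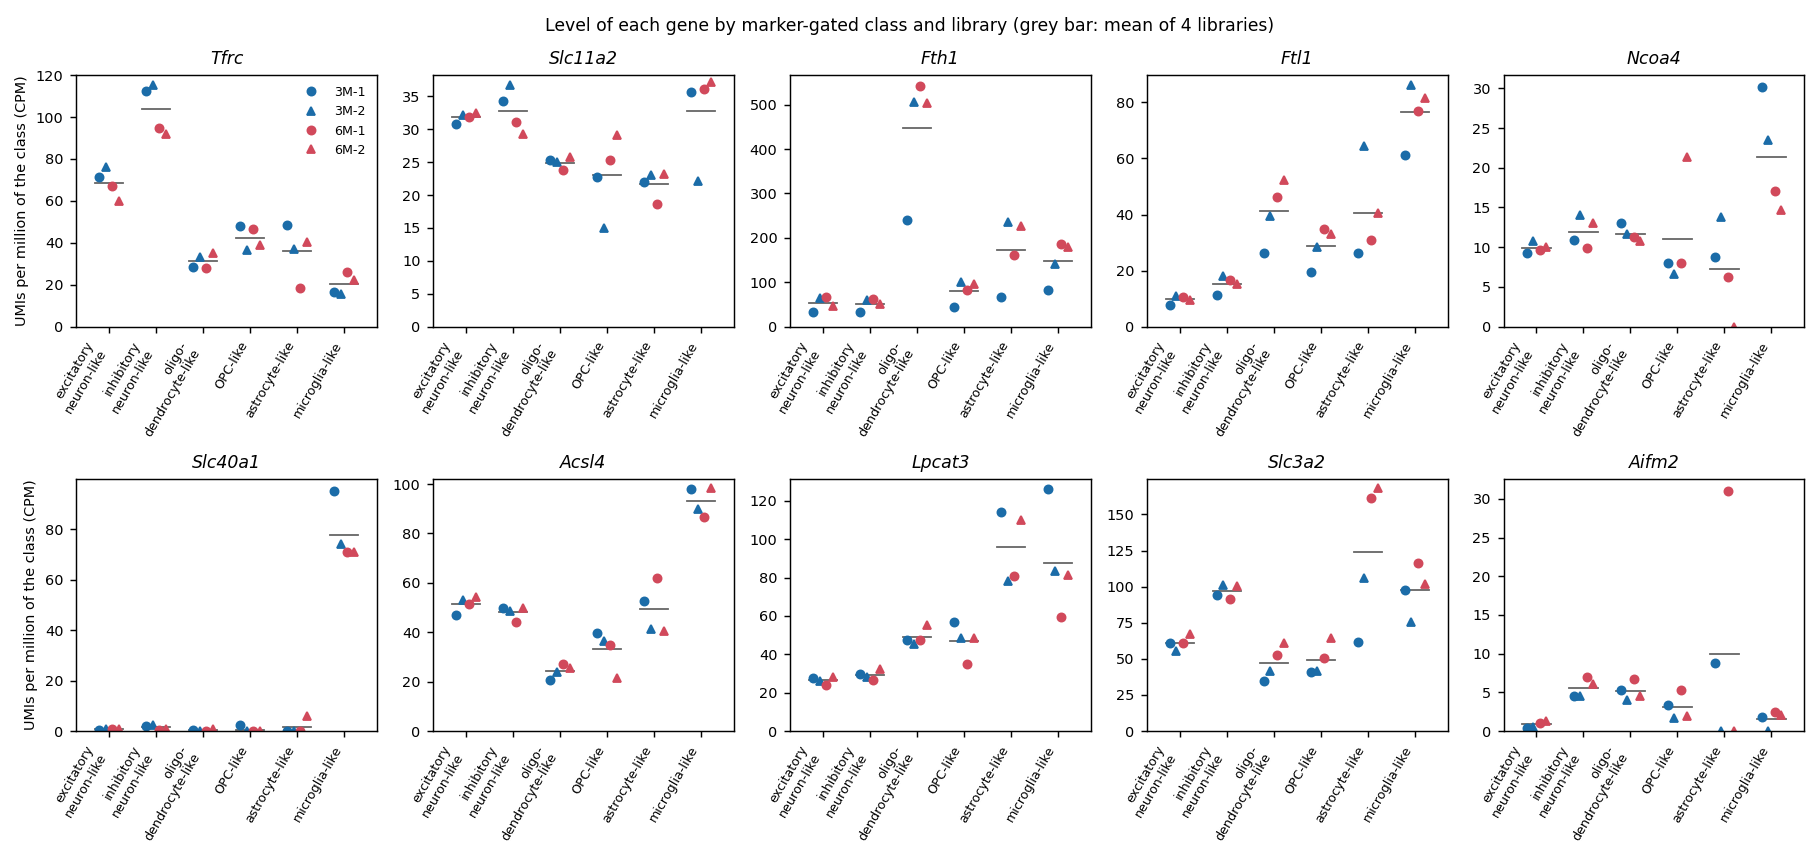
Level of each of the 10 genes in CPM (y axis, from 0) in the 6 classes (x axis), with a point per library (blue for 3 months, red for 6 months, circles for batch 1, triangles for batch 2) and a grey bar for the mean of 4. Slc40a1 stands at 70.8 to 95.2 CPM in microglia-like nuclei and near 0 in the other 5 classes, and Fth1 is highest in oligodendrocyte-like nuclei, with 3M-1 the lowest library in every class.

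Tfrc, the receptor that takes up transferrin-bound iron, was highest in inhibitory neuron-like nuclei. There its level was 113 and 115 CPM at 3 months and 94.9 and 92.0 CPM at 6 months, first library first, the order kept wherever 4 values are given. In excitatory neuron-like nuclei it was 71.6, 76.1, 67.3 and 59.8 CPM. All 8 neuronal values lay above all 16 glial ones. The difference from the other classes (log2 fold change ± SE) was 1.53 ± 0.0889 in inhibitory (adjusted p = 4.77e-14) and 1.06 ± 0.0884 in excitatory neuron-like nuclei (adjusted p = 4.28e-11). Microglia-like nuclei had the lowest level, 16.5, 15.6, 26.3 and 22.5 CPM, and a difference of −1.57 ± 0.155 (adjusted p = 1.06e-09). The mean levels of OPC-like (42.5 ± 5.61 CPM, SD, n = 4), astrocyte-like (36.1 ± 12.6) and oligodendrocyte-like nuclei (31.2 ± 3.44) lay between, and their ranges overlapped from neighbour to neighbour. The oligodendrocyte-like difference passed the test at −0.48 (adjusted p = 0.00137) but not under a stricter gate (−0.34, adjusted p = 0.0855).

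Slc11a2, the divalent metal transporter that moves iron out of endosomes, varied little: its class means ran from 21.7 CPM in astrocyte-like to 32.8 CPM in inhibitory neuron-like nuclei, a 1.51-fold span. It was 30.8 to 32.4 CPM in the 4 excitatory and 29.2 to 36.7 CPM in the 4 inhibitory neuron-like sums. Both neuronal classes passed the test, at 0.55 ± 0.0914 (adjusted p = 7.89e-06) and 0.36 ± 0.100 (adjusted p = 0.00293). The microglia-like range of 22.2 to 37.2 CPM covered both.

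Fth1 encodes the ferritin heavy chain, which oxidises iron as it is stored. In oligodendrocyte-like nuclei its level was 239 CPM in 3M-1, and 506, 542 and 503 CPM in the libraries that followed. Those 3 lay close together and 3M-1 far below them. Still, the lowest oligodendrocyte-like value was above the highest in the other 5 tested classes, 235 CPM in astrocyte-like nuclei of 3M-2. The difference was 2.45 ± 0.0844 (adjusted p = 1.45e-19). Astrocyte-like (172 ± 78.0 CPM, SD, n = 4) and microglia-like nuclei (147 ± 47.1) followed with overlapping ranges, then OPC-like nuclei (80.6 ± 25.2). Neurons had the least, 34.1 to 66.8 CPM in excitatory and 32.0 to 63.2 CPM in inhibitory neuron-like sums. Their differences were −1.05 ± 0.0999 (adjusted p = 5.57e-10) and −1.33 ± 0.106 (adjusted p = 2.61e-11). The OPC-like difference was −0.70 (adjusted p = 0.000128) and lost the call without the mouse block (adjusted p = 0.0534). The astrocyte-like difference of 0.52 (adjusted p = 0.0114) lost it without the block, without the filter on low counts, without 3M-2 (0.34, adjusted p = 0.226) and without 6M-2 (0.40, adjusted p = 0.100).

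Ftl1, the ferritin light chain that helps form the iron core, had a different leader. Microglia-like nuclei held 61.4, 86.0, 77.0 and 81.4 CPM, against 26.4, 39.5, 46.2 and 52.3 CPM in oligodendrocyte-like nuclei. These ranges did not overlap. The astrocyte-like range of 26.3 to 64.5 CPM, from 5 to 14 UMIs per library, overlapped both. The differences were 1.38 ± 0.104 in microglia-like (adjusted p = 4.48e-12) and 0.76 ± 0.0983 in oligodendrocyte-like nuclei (adjusted p = 2.02e-07). Neurons were again lowest, with means of 9.74 ± 1.39 CPM (SD, n = 4) in excitatory and 15.3 ± 3.00 in inhibitory neuron-like nuclei and differences of −1.56 and −1.03 (adjusted p = 1.55e-13 and 2.48e-09). The copy Ftl1-ps1 had a mean level of 11.2 CPM in excitatory neuron-like nuclei, where Ftl1 itself had 9.74 CPM, and 2.20 CPM in oligodendrocyte-like nuclei. With both summed, the 4 calls and their directions stayed, but each difference was smaller, near the weaker end of its range below. Sizes also depended on the run. Over all alternative runs, the summed one included, they ran from −1.87 to −0.75 in excitatory and −1.13 to −0.70 in inhibitory neuron-like nuclei. In microglia-like nuclei the range was 0.95 to 1.69, and in oligodendrocyte-like nuclei 0.33 to 0.92.

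Ncoa4, the receptor that carries ferritin to the lysosome, was highest in microglia-like nuclei at 30.2, 23.5, 17.1 and 14.7 CPM. All 4 were above the range of the classes with more than 100 Ncoa4 UMIs, but 1 OPC-like sum (6M-2, 21.4 CPM from 11 UMIs) lay among them. The difference of 0.72 ± 0.223 passed (adjusted p = 0.00695), though not without 3M-1 (0.48, adjusted p = 0.126). The other 5 classes had means of 7.21 to 12.0 CPM, and none of their differences passed. In astrocyte-like nuclei of 6M-2 no Ncoa4 UMI was seen, which allows up to 17.4 CPM.

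Slc40a1 encodes ferroportin, the cell's iron exporter. Microglia-like nuclei held 95.2 and 74.3 CPM at 3 months and 70.8 and 70.9 CPM at 6 months, from 57 to 116 UMIs each. In the other 5 tested classes the mean was at most 1.49 CPM, in inhibitory neuron-like nuclei. OPC-like, astrocyte-like and oligodendrocyte-like nuclei gave 2, 1 and 3 UMIs in all 4 libraries together, and their libraries without a UMI allow up to 5.83, 18.6 and 1.74 CPM. The microglia-like mean was 52.2 times that of the next class, and the fitted difference was 6.38 ± 0.277 (adjusted p = 2.61e-17), a size that depends on the few UMIs of the other classes. A lower level in oligodendrocyte-like nuclei passed the test (adjusted p = 0.0257) but rested on those 3 UMIs and was lost without 3M-1, without 6M-2 or with the stricter gate.

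**Figure D2:**
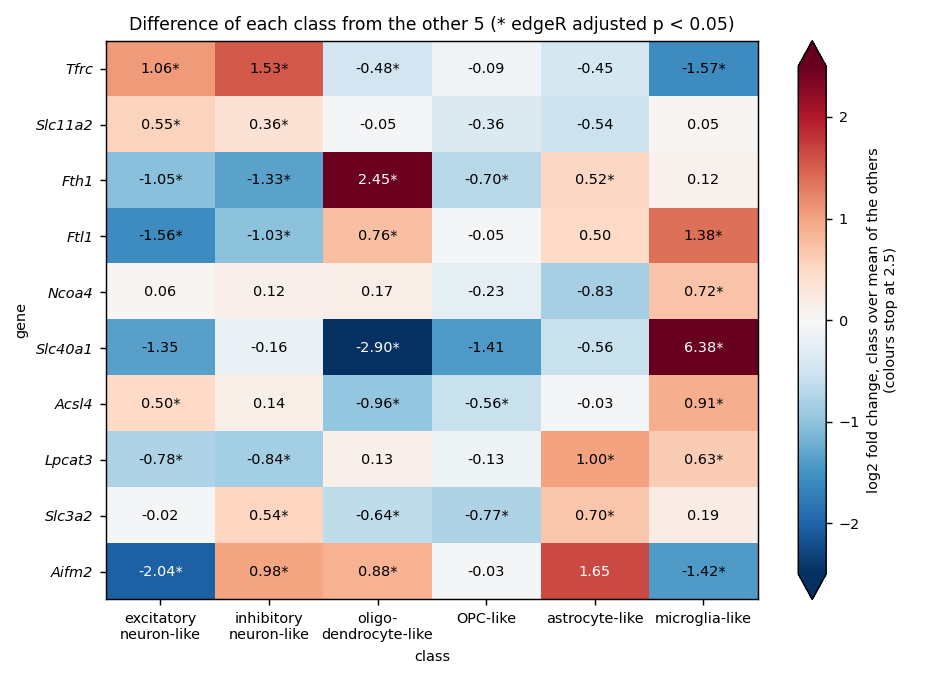
Fitted log2 fold change of each class over the mean of the other 5 (columns) for the 10 genes (rows), red for higher and blue for lower, with an asterisk for an edgeR adjusted p under 0.05. Tfrc and the ferritin genes have opposite signs in both neuronal classes (Tfrc 1.06 and 1.53, Fth1 −1.05 and −1.33, Ftl1 −1.56 and −1.03), and Slc40a1 reaches 6.38 in microglia-like nuclei.

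Across the 24 sums of 6 classes and 4 libraries, the Pearson correlation of log2(CPM + 1) was −0.81 between Tfrc and Ftl1, −0.63 between Tfrc and Fth1 and 0.72 between Fth1 and Ftl1. Values of this size were not particular to these genes: Lpcat3 was at −0.76 with Tfrc and 0.76 with Ftl1. Slc40a1, which also has a hairpin, was at −0.46 with Tfrc, 0.04 with Fth1 and 0.54 with Ftl1. These sums share libraries and depth and are only a description.

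Acsl4, the ligase that activates polyunsaturated fatty acids for phospholipids, was highest in microglia-like nuclei, at 98.0 and 89.9 CPM at 3 months and 86.7 and 98.2 CPM at 6 months. None of the other 5 tested classes reached these values, and the difference was 0.91 ± 0.0939 (adjusted p = 2.47e-09). Excitatory neuron-like nuclei followed (51.4 ± 3.13 CPM, SD, n = 4, difference 0.50, adjusted p = 2.02e-06), with overlapping ranges in astrocyte-like (49.2 ± 10.2) and inhibitory neuron-like nuclei (48.1 ± 2.57). Oligodendrocyte-like nuclei were lowest at 20.7 to 27.1 CPM, a difference of −0.96 ± 0.105 (adjusted p = 8.99e-09). OPC-like nuclei were also lower (−0.56, adjusted p = 0.00277).

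Lpcat3, which inserts polyunsaturated chains into phospholipids, was highest in astrocyte-like nuclei at 114, 78.4, 80.7 and 110 CPM. Microglia-like nuclei spanned 59.2 to 126 CPM, so these classes overlapped. Both passed the test, at 1.00 ± 0.182 (adjusted p = 7.85e-05) and 0.63 ± 0.101 (adjusted p = 4.45e-06). In neurons Lpcat3 was lower, with means of 26.5 ± 1.94 CPM (SD, n = 4) in excitatory and 29.2 ± 2.36 in inhibitory neuron-like nuclei and differences of −0.78 and −0.84 (adjusted p = 4.87e-09 and 8.9e-09).

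Slc3a2 is the heavy chain (CD98) that the cystine importer Slc7a11 and several amino acid transporters need at the membrane. Its level was 61.5, 106, 161 and 168 CPM in astrocyte-like nuclei, from 14 to 29 UMIs each. Microglia-like nuclei had a mean of 97.8 CPM (75.6 to 116), and their difference of 0.19 did not pass (edgeR adjusted p = 0.135). Inhibitory neuron-like nuclei held a steadier 91.7 to 101 CPM. The differences were 0.70 ± 0.186 in astrocyte-like (adjusted p = 0.00468, lost without 6M-2 at 0.58, adjusted p = 0.0625) and 0.54 ± 0.0906 in inhibitory neuron-like nuclei (adjusted p = 1.03e-05). Oligodendrocyte-like (−0.64, adjusted p = 1.59e-05) and OPC-like nuclei (−0.77, adjusted p = 0.000207) had less.

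Aifm2 encodes FSP1, which regenerates ubiquinol as a radical trap independent of glutathione. In excitatory neuron-like nuclei its level was 0.444, 0.557, 1.05 and 1.33 CPM, from 15 to 40 UMIs. The inhibitory neuron-like levels were 4.49, 4.56, 7.04 and 6.09 CPM, with no overlap between these neuronal classes. The differences were −2.04 ± 0.313 (adjusted p = 2.15e-06) and 0.98 ± 0.258 (adjusted p = 0.00198). The oligodendrocyte-like difference of 0.88 (adjusted p = 0.0181) was lost without 3M-1 (0.74, adjusted p = 0.101) and without 3M-2 (0.76, adjusted p = 0.0645). The microglia-like difference of −1.42 (adjusted p = 0.0171) came from 9 UMIs and was lost without TMM scaling (−1.13, adjusted p = 0.0592). In astrocyte-like nuclei 7 UMIs gave 0 to 31.1 CPM, and the difference did not pass (adjusted p = 0.0914).

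The second question was whether these genes changed from 3 to 6 months. No change passed the test. Each class was fitted on its own with 2 libraries per age, and 0 of 49 fits of the 10 genes passed an adjusted p of 0.05. Among all genes, 0% passed in excitatory neuron-like, 0% in inhibitory neuron-like, 0.0155% in oligodendrocyte-like (Bcl3 and C4b, both higher at 6 months), 0% in OPC-like, 0% in astrocyte-like and 0% in microglia-like nuclei. At an unadjusted p under 0.05 there were 1027, 595, 991, 341, 156 and 696 genes in the same order, and DESeq2 called 38, 2, 32, 0, 0 and 9 genes, none of them among the 10. With 2 libraries against 2, an exact permutation test of a single gene could not go below p = 0.333, and no such test was run.

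Fth1 had the same sign in all 6 classes. Its difference (6 over 3 months, log2, with 95% interval) was 0.72 (0.08 to 1.35) in microglia-like nuclei, 0.42 (−0.18 to 1.01) in oligodendrocyte-like and 0.19 (−0.44 to 0.82) in excitatory neuron-like nuclei. In microglia-like nuclei the levels were 83.3 and 141 CPM at 3 months and 186 and 179 CPM at 6 months. There the ages did not overlap, whereas in the other 5 classes 3M-2 lay within or above the 6-month range. Both 6-month libraries exceeded both 3-month libraries in 17.9% of all genes in microglia-like nuclei at a mean level of at least 10 CPM. The 3-month library 3M-1 was the lowest of the 4 in 6 of 6 classes for Fth1 and also for Ftl1. It was the lowest for 25.3% to 41.8% of all genes, depending on the class, and was the library low in ribosomal protein RNA, whose part in the result was not tested. Without 3M-1, the Fth1 difference turned to −0.14 in excitatory neuron-like, −0.07 in inhibitory neuron-like, −0.15 in OPC-like and −0.33 in astrocyte-like nuclei. Within batch 1 the log2 ratio was 1.18 in oligodendrocyte-like nuclei, 1.15 in microglia-like and 0.97 in excitatory neuron-like nuclei. Within batch 2 it was −0.01, 0.34 and −0.45. Without 3M-2, Fth1 passed in inhibitory neuron-like (0.80), oligodendrocyte-like (0.95) and microglia-like nuclei (1.11), but so did 4700 differences over all genes and classes.

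Ftl1 differed by 0.51 (0.01 to 1.01) in oligodendrocyte-like and by 0.12 (−0.44 to 0.67) in microglia-like nuclei. Without 3M-1 these differences were 0.28 and −0.12. Those of excitatory and inhibitory neuron-like nuclei went from 0.08 and 0.15 to −0.09 and −0.15, and that of OPC-like nuclei from 0.56 to 0.29. Its oligodendrocyte-like levels, given above, did not overlap between ages, with both older libraries above both younger ones. That order held in 25.4% of all genes of that class at a mean of at least 10 CPM, and the reverse in 13.5%. Within batches the Ftl1 ratio there was 0.80 and 0.40.

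Slc3a2 had both 6-month libraries above both 3-month libraries in 4 of 6 classes, more than any other of the 10 genes. How many of all genes did so in 4 classes was not counted, and the classes come from the same mice. The ages of Ncoa4 also separated in 4 classes, with 6 months above in 1 and below in 3. Both 6-month libraries lay below in 13.5% of all genes in oligodendrocyte-like, 14.5% in astrocyte-like and 17.5% in microglia-like nuclei. These shares are for a mean of at least 10 CPM, which Ncoa4 did not reach in astrocyte-like nuclei (6 UMIs). Slc3a2 in oligodendrocyte-like nuclei was at 34.4 and 41.2 CPM at 3 months and 52.6 and 61.0 CPM at 6 months. Its difference there was 0.50 (0.05 to 0.95, unadjusted p = 0.0332, adjusted p = 0.601). In astrocyte-like nuclei, whose levels are given above, it was 0.93 (0.07 to 1.79, unadjusted p = 0.0366, adjusted p = 0.998). OPC-like and microglia-like nuclei were the remaining classes without overlap, at 0.48 and 0.32. At a mean of at least 10 CPM, both 6-month libraries lay above in 25.4% of genes in oligodendrocyte-like and 15.3% in OPC-like nuclei. In astrocyte-like and microglia-like nuclei this share was 17.1% and 17.9%. Within batches the oligodendrocyte-like ratios were 0.61 and 0.56, and those of astrocyte-like nuclei 1.37 and 0.66.

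Neuronal Tfrc went the other way. Both 6-month libraries lay below both 3-month libraries in inhibitory and excitatory neuron-like nuclei, with differences of −0.28 (−0.55 to −0.00, unadjusted p = 0.0491) and −0.25 (−0.58 to 0.08), neither called (adjusted p = 0.980 and 0.883). Such a separation occurred in 19.7% and 22% of all genes of these classes. Within batches the inhibitory ratios were −0.25 and −0.33. In microglia-like nuclei Tfrc was instead higher in both 6-month libraries, by 0.60 (−0.18 to 1.38) with 12 to 43 UMIs per library.

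Aifm2 was higher in both 6-month libraries in excitatory and inhibitory neuron-like nuclei, a separation found in 15.1% and 14.7% of all genes of these classes at 10 CPM or more, a level that Aifm2 does not reach. The excitatory difference was 1.22 (0.33 to 2.12, unadjusted p = 0.0134, adjusted p = 0.846). Slc40a1 in inhibitory neuron-like nuclei differed by −1.73 (−2.99 to −0.47, unadjusted p = 0.0131, adjusted p = 0.980) on 4 to 15 UMIs per library. In microglia-like nuclei, where Slc40a1 is abundant, the difference was −0.27 (−0.77 to 0.24). Ncoa4 (−0.76, −1.54 to 0.02) and Lpcat3 (−0.59, −1.24 to 0.06) were lower in both 6-month microglia-like libraries, as were 17.5% of all genes there, and neither passed. Acsl4 and Slc11a2 had intervals that included 0 in every class fitted.

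Whether the age difference itself varied between classes was tested jointly. None of the 10 genes passed, against 0.0751% of all genes. The smallest unadjusted p-values were 0.0307 for Slc3a2 (adjusted p = 0.600) and 0.0395 for Lpcat3 (adjusted p = 0.637).

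**Figure D3:**
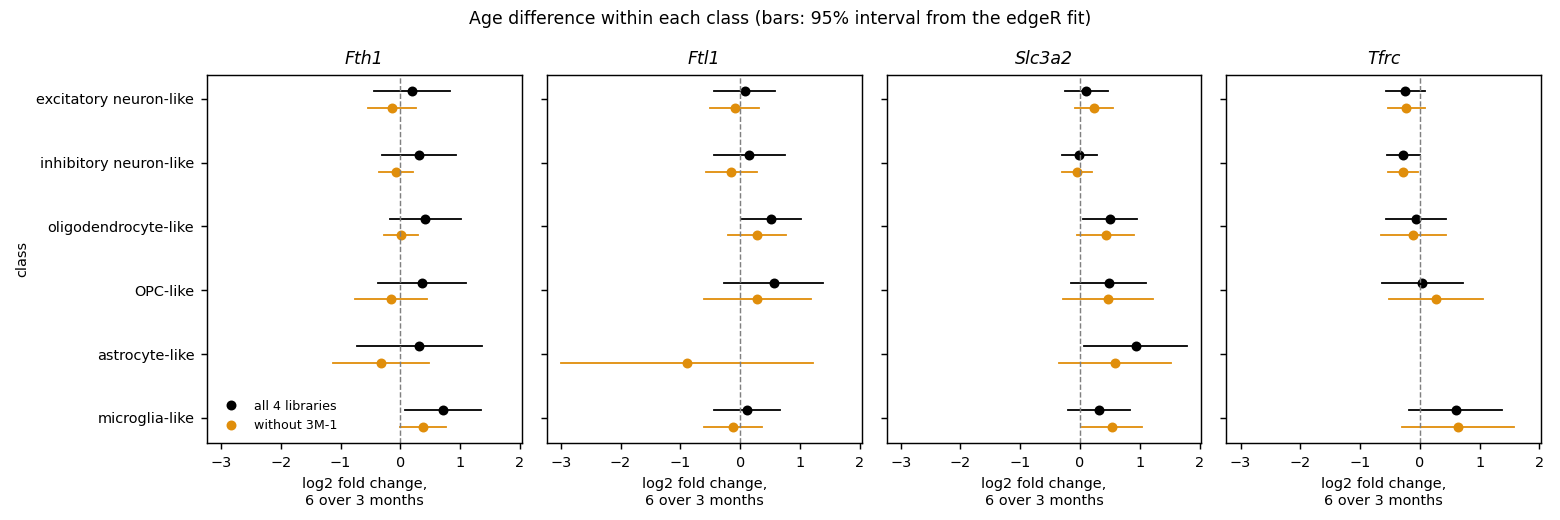
Log2 fold change of 6 over 3 months (x axis) for Fth1, Ftl1, Slc3a2 and Tfrc in each class (y axis), with 95% intervals from the edgeR fit, in black with all 4 libraries and in orange without 3M-1. Without 3M-1 the Fth1 points move left of 0 in 4 classes, while the Slc3a2 points in glial classes stay right of it. Combinations below the count filter are not drawn.

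Microglia-like nuclei were then divided by genes of disease-associated microglia (DAM), a state known for phagocytic and lipid-handling genes. Nuclei with at least 2 of 9 measured DAM genes were called DAM-like: 99 of 466 and 60 of 382 nuclei at 3 months, and 204 of 719 and 144 of 578 at 6 months. Between 33 and 107 of these per library had exactly 2, and 62 to 212 others had 1. DAM-like nuclei had more UMIs, with medians of 2053 to 2697 against 1383 to 2137 in the other microglia-like nuclei. Macrophage markers were at most 7.56 CPM in DAM-like and 18.1 CPM in the other sums. Each state was summed per mouse and compared within the mouse.

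Of 9 genes tested, 1 passed, against 5.24% of 8850 genes. Slc3a2 was at 155 CPM in DAM-like and 79.8 CPM in other nuclei of 3M-1. The same pair of levels was 109 and 65.7 CPM in the other 3-month mouse, and 151 and 99.2 CPM, then 123 and 93.5 CPM, in the 6-month mice. It was higher in DAM-like nuclei in 4 of 4 mice, as were 12.6% of all genes at a mean of at least 10 CPM, and the states did not overlap. The difference was 0.63 ± 0.159 (edgeR adjusted p = 0.0272). The study's own list of genes of this state, drawn from these samples, holds Slc3a2 and Ftl1, so this is not independent evidence. The difference kept its direction in every alternative run, between 0.54 and 0.80, but passed in none of the fits that left out 1 mouse (adjusted p = 0.123 and 0.0560 without the first and the second 3-month mouse, 0.103 and 0.0879 without the first and the second 6-month mouse), nor with DESeq2 (adjusted p = 0.363), the stricter gate (0.0634), no mouse block (0.153) or a gate of at least 3 DAM genes (0.0529). After thinning each nucleus to 1000 UMIs before the gate it was 0.80 (adjusted p = 0.0031).

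Slc11a2 was also higher in DAM-like nuclei of 4 of 4 mice, at 60.5, 34.5, 47.3 and 52.7 CPM against 27.8, 18.5, 30.7 and 31.2 CPM. Its difference of 0.80 ± 0.239 did not pass (adjusted p = 0.0692), although it did without the deepest 5% of nuclei (0.99, adjusted p = 0.0194). Slc40a1 was lower in 4 of 4 mice, as were 11.3% of all genes, with 79.4, 28.7, 64.3 and 57.7 CPM against 100, 87.6, 74.0 and 76.0 CPM. The fitted value was −0.48 (adjusted p = 0.259), and −0.96 after thinning (adjusted p = 0.0142). Ftl1 was higher in 3 of 4 mice at 0.51 (adjusted p = 0.256), and without 3M-1, the exception, it passed (0.76, adjusted p = 0.0309).

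Fth1 did not separate the states: its DAM-like levels were 79.4, 172, 187 and 176 CPM and its levels in the other nuclei 84.6, 131, 186 and 180 CPM. The difference was 0.04 with an interval from −0.27 to 0.34. Acsl4 (0.20), Tfrc (0.16) and Lpcat3 (−0.17) had intervals that included 0, as did Ncoa4 (−0.70, −1.56 to 0.16). Lpcat3 was lower in 4 of 4 mice by a small margin. Aifm2 was too scarce to be fitted.

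**Figure D4:**
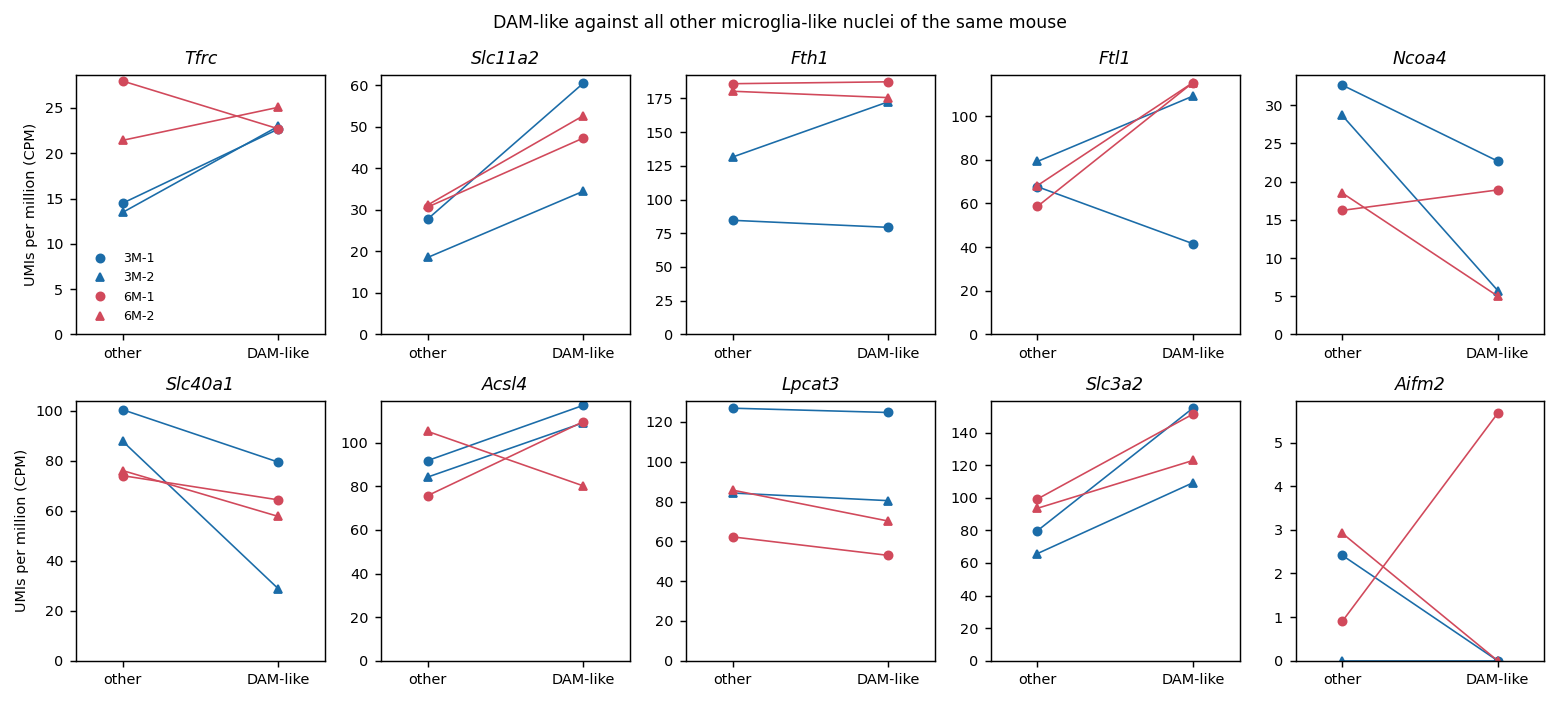
Level in CPM (y axis, from 0) of each gene in other and DAM-like microglia-like nuclei (x axis) of the same mouse, joined by a line, blue for 3 months and red for 6 months. All 4 lines rise for Slc3a2 and Slc11a2 and fall for Slc40a1, and those of Fth1 are nearly level except in 3M-2.

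A further 78 genes of the same pathways in 8 lists were taken with the 10, and those above the count filter were fitted. In the DAM-like fit these ran from 1 of 6 export and ferroxidase genes to 3 of 3 iron sensors. None of the fitted genes was called for age, for DAM-like nuclei or for the age difference between classes. Between classes, 23 of 42 differences of the transferrin and iron uptake genes passed (11 higher, 12 lower), 16 of 36 of the storage and chaperone genes (9 and 7), 9 of 18 of the export and ferroxidase genes (5 and 4) and 7 of 18 of the iron sensors (3 and 4). The haem genes gave 29 of 48 (13 and 16), mitochondrial iron 23 of 54 (12 and 11), lipid remodelling and oxidation 69 of 114 (35 and 34) and radical-trapping defences 28 of 66 (13 and 15). These shares, 38.9% to 60.5%, lie around the 50.6% of all genes over the same 6 classes.

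Oligodendrocyte-like nuclei carried the transferrin gene Trf at 1097 ± 127 CPM (SD, n = 4), against 107 CPM in microglia-like and at most 17.4 CPM in the other 4 tested classes (5.90 ± 0.132, adjusted p = 9.83e-24). They were also higher for Slc48a1, a haem transporter (3.09), Hmox2, a haem oxygenase (1.59), Fech, which inserts iron into haem (1.20), Abcb8, a mitochondrial transporter (1.38), and Fbxl5, the iron-sensing subunit that marks an iron regulatory protein for breakdown (1.89). Of the lipid genes, Scd2, a desaturase that makes monounsaturated from saturated fatty acids (2.46), and Mboat1, a lysophospholipid acyltransferase (4.44), were higher there. Scd2 was not particular to this class, with 264 to 522 CPM there and 303 to 493 CPM in astrocyte-like nuclei. Hmox2 at 97.7 to 131 CPM overlapped the 72.7 to 108 CPM of microglia-like nuclei. Mboat1 averaged 104 CPM in oligodendrocyte-like and 50.5 CPM in microglia-like nuclei. The median difference of the haem list was 0.70 in this class, where that of all genes was −0.00.

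In astrocyte-like nuclei the cystine importer Slc7a11, the partner of Slc3a2, was at 555 ± 131 CPM (SD, n = 4) against at most 8.22 CPM on average in any other tested class (7.33, adjusted p = 5.99e-19). Prdx6, a peroxidase of phospholipids (3.93), and Acsl3, which activates monounsaturated fats (4.33, 941 ± 88.5 CPM), were higher too. The ferroxidase Heph was at 35.1 ± 20.5 CPM there and at most 0.209 CPM on average in the other tested classes, and Bmp6, an inducer of hepcidin, at 128 ± 143 CPM, with 11.6 to 329 CPM between libraries. All 3 tested genes of the export and ferroxidase list were called higher in this class, as were 14.6% of all genes. The third, Cp, ran from 11.6 to 273 CPM between libraries, with 44 of its 61 UMIs in a single library. Astrocyte-like sums also held 226 to 395 CPM of the mural markers, and mural-like nuclei held Cp at 807 CPM. A link between these was not tested. Of 19 lipid genes 11 were higher, against 14.6% of all genes, with a list median of 1.10 against −0.18 for all genes.

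Microglia-like nuclei were higher for Nfe2l2, the regulator of antioxidant genes (3.63, 188 ± 39.1 CPM, SD, n = 4), Slc25a37, a mitochondrial iron importer (2.16), Iscu, the iron-sulphur scaffold (1.32), Hfe, a partner of the transferrin receptors (5.01), the iron regulatory protein gene Ireb2 (0.54), Bola2, a partner in iron-sulphur transfer (1.43), and Herc2, a ligase that acts on NCOA4 (0.93). Excitatory neuron-like nuclei were higher for Tfr2, the second transferrin receptor (1.99), and lower for Cp, a ferroxidase (−1.65), the iron chaperone Pcbp1 (−0.85) and Aco1, an iron regulatory protein (−0.43). All of these passed an edgeR adjusted p of 0.05. The level of Tfr2 was close in both neuronal classes, at 6.42 to 10.6 CPM in excitatory and 5.92 to 10.4 CPM in inhibitory neuron-like nuclei.

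For each of the 10 genes, the genes of most similar level over the 24 sums were named by the Pearson correlation of log2(CPM + 1) among 11017 genes. They were Cep126 and Cplane1 for Tfrc (0.92 and 0.91), Klhdc1 and Dym for Slc11a2 (0.81 and 0.76), Jund and Arrdc3 for Fth1 (0.92 for each) and Rps9 and Smyd1 for Ftl1 (0.96 for each). Ncoa4 was most like Eif4a3 and Exosc8 (0.93 for each), and Slc40a1 like Gna15 and Slc7a7 (0.96 and 0.95). For Acsl4 they were Atxn7l1 and Sh3bp1 (0.97 and 0.94), for Lpcat3 Nrf1 and Ccdc62 (0.95 and 0.94), for Slc3a2 Fgd4 and Tmem241 (0.86 for each), and for Aifm2 Cnbd2 and Wnt5b (0.80 and 0.79). The sums of a class share their cell type, so such values mostly describe the classes.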

How the data were processed

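Nuclei of the cerebral cortex were profiled with the 10x Chromium 3′ v3.1 kit, and the authors made the deposited matrices of raw UMI counts with Cell Ranger (7.0.0 in the file headers) on mm10; Seurat is also named in their processing notes. Reads from introns and spliced RNA cannot be told apart in these counts, and levels were compared within a gene only. The study's filter (over 7000 genes or over 1% mitochondrial UMIs) removed 267 and 2 nuclei.

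A nucleus joined a class with at least 3 of its markers detected and at least 2 times as many as of any other list. This was meant to leave out mixed droplets. How many remained was not measured, and no doublet caller was run. A nucleus that also met the spiny neuron (47 nuclei) or granule neuron gate (1) stayed inhibitory or excitatory, a choice made after the data were seen. UMIs were summed per library and class for classes with at least 20 nuclei in every library, so the spiny neuron-, granule neuron-, endothelial- and mural-like classes were not tested, nor were 7983 nuclei without a class.

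Sums were fitted in R 4.3.3 with edgeR 4.0.16 (quasi-likelihood, TMM, filterByExpr, Benjamini-Hochberg over all genes), with DESeq2 1.42.0 as an alternative. Only the edgeR fits were also run on simulated data. Age was fitted per class without a block. Shared batch numbers pair the ages, but the correlation of same-batch deviations ran only from −0.14 to 0.11 over classes. Class and DAM contrasts had the mouse as a block. p-values rest on 2 libraries per age. Other settings were gates, filters, scaling, the block and leaving out each library. The log2 ratios within a batch or mouse added 0.5 UMI. Intervals cover 95%, and a library at 0 was given the level of 3 UMIs, for counting error only. All 10 genes were named, with up to 3 called genes of smallest adjusted p per pathway list and the 2 most similar genes each. The genes, lists and gates were chosen with earlier results of these data known. Positions and transcripts are those of GENCODE M21, which holds 32158 of the 32285 identifiers.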

Additional observations from a re-analysis of the deposited data

Results flagged for a closer look

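Among 67 groups of 4 values with more than 3 UMIs, 5 had a sample whose gap from the rest exceeded the 95% critical value of Dixon's test, where chance flags about 1 in 20. Fth1 in oligodendrocyte-like nuclei of 3M-1 was low at 239 CPM, and Slc40a1 in microglia-like nuclei of the same library was high at 95.2 CPM. Slc11a2 in microglia-like nuclei of 3M-2 was low at 22.2 CPM. Ncoa4 in OPC-like nuclei of 6M-2 was high at 21.4 CPM, from 11 UMIs. The log2 ratio of Slc40a1 in DAM-like over other microglia-like nuclei was −1.49 in 3M-2, against −0.19 to −0.38 in the other 3 mice.

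The 19 endothelial-like nuclei, too few for a comparison, came from 3 libraries, 12 of them from 6M-2. Their 30005 UMIs held 19 of Tfrc, a level of 633 CPM (exact Poisson 95% interval 381 to 989, counting error only). In the 6 classes tested the highest mean of Tfrc was 104 CPM, in inhibitory neuron-like nuclei. Slc40a1 was at 299.95 CPM in the endothelial-like nuclei (137 to 569) from 9 UMIs, and Fth1 at 299.95 CPM (137 to 569), also from 9 UMIs. The differences from the tested classes were not tested.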

How the results depend on the processing

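Of 666 refits of single-gene differences, 627 kept their direction and their side of an adjusted p of 0.05, 22 lost the call, 7 gained it and 10 changed sign. The refits covered only differences called in the main fit. For age and DAM-like nuclei they also covered Fth1 and differences with an unadjusted edgeR p under 0.05. A call gained by any other difference is not in these counts. Between classes, the number of called differences of the 10 genes and of all genes stayed within 1.5 times under every alternative run.

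For age, differences called over all genes and classes were 1 without TMM, 81 with DESeq2, 329 without the filter on low counts, 38 with the stricter gate, 37 without the deepest 5% of nuclei and 37 to 4700 without 1 library. Of the 10 genes, 0 were called in all of these except when 3M-2 was left out (0 to 5 without 1 library). There Fth1 in 3 classes, Ftl1 in oligodendrocyte-like nuclei and Lpcat3 in microglia-like nuclei (−0.88) passed, and the lone 3-month library was assumed to vary like the 6-month ones. With the replicate block 138 differences over all genes were called, 125 of them in oligodendrocyte-like nuclei, and it changed no call of the 10 genes. With the block's numbers crossed, an alternative chosen after seeing the data, 342 were called and 0 of the 10 genes.

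The age difference of Fth1 changed sign without 3M-1 in 4 classes, without 6M-1 in excitatory neuron-like nuclei (−0.065) and without 6M-2 in astrocyte-like nuclei (−0.0055). Its range without 1 library was −0.14 to 0.65 in excitatory neuron-like, −0.072 to 0.80 in inhibitory neuron-like, −0.15 to 1.01 in OPC-like and −0.33 to 1.53 in astrocyte-like nuclei. These fits leave out samples and the cause was not tested.

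In DAM-like nuclei the called genes of the 10 were 0 with DESeq2, 0 with the stricter gate, 0 without the replicate block, 0 at 3 DAM genes or more, 2 without the deepest nuclei, 2 after thinning and 0 to 1 without 1 library. Over all genes the calls were 158 with DESeq2, 697 without the filter, 723 without the deepest nuclei, 72 without the block, 1158 after thinning and 203 to 410 without 1 library. The DAM difference of Fth1 turned to −0.011 without the filter, −0.032 with the stricter gate and −0.054 at 3 DAM genes, with −0.038 to 0.065 without 1 library.

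For age by class, 76 genes were called with DESeq2, 393 without the filter, 134 with the stricter gate, 17 with the looser gate, 61 without the deepest nuclei and 3 to 189 without 1 library. Slc40a1 outside microglia-like nuclei, Aifm2, and all genes in the 225 astrocyte-like nuclei are limited by few UMIs.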

Other observations

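Spiny neuron-like nuclei (266, of which 10 in 6M-2) were not tested. Their summed level of Tfrc was 85.1 CPM (exact Poisson 95% interval 73.1 to 98.5), of Fth1 49.2 CPM (40.2 to 59.6), of Slc3a2 47.7 CPM (38.9 to 58.0) and of Slc40a1 0.473 CPM from 1 UMI. The 53 mural-like nuclei held the ferroxidase gene Cp at 807 CPM (628 to 1021) from 69 UMIs, where the highest mean of the tested classes was 88.0 CPM, in astrocyte-like nuclei (11.6 to 273 CPM between libraries). Mural-like nuclei also held Slc3a2 at 164 CPM (89.5 to 275) from 14 UMIs and Ftl1 at 117 CPM (56.1 to 215) from 10 UMIs. In the endothelial-like nuclei Ftl1 was at 400 CPM (207 to 699) from 12 UMIs and Slc3a2 at 267 CPM (115 to 525) from 8 UMIs. The highest means of the tested classes were 76.4 CPM for Ftl1 and 124 CPM for Slc3a2.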
